A study of Mus musculus with 4 samples.

Results

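The mitochondrial ribosomal protein genes are the nuclear genes for the proteins of the mitochondrial ribosome. They were taken as every row of the deposited table whose symbol starts with Mrpl or Mrps followed by digits, without pseudogenes named -ps. This gave 75 of the 14984 genes in the table, 47 with an Mrpl symbol (large subunit) and 28 with an Mrps symbol (small subunit). The data were ribosome footprints, the mRNA fragments that ribosomes shield from nuclease, from testes of mice at day 10. The groups were 2 samples in which Eif5 was deleted in germ cells (Eif5 cKO, made by crossing Eif5 fl/fl with Stra8-Cre mice) and 2 control samples. The sources used here give neither the genotype of the controls nor the number of animals per sample. Stra8-Cre is known to act in differentiating germ cells, so the somatic cells of the testis, such as Sertoli and Leydig cells, are not its target. The labels do not tie the 2 samples of a group to different mice, and every p-value therefore reflects the spread among the deposited samples alone, which could be technical.

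Mitochondrial ribosomes translate the few mRNAs of the mitochondrial genome, all of which encode membrane subunits of the respiratory chain and the ATP synthase. Their RNAs are transcribed inside the mitochondrion, whereas all their proteins are encoded in the nucleus, translated on cytosolic ribosomes and imported. Some of these proteins have bacterial counterparts and others are found in mitochondria only. Eif5 encodes the factor that triggers GTP hydrolysis by eIF2 at the start codon in cytosolic translation.

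Every one of the 75 genes matched RefSeq (GRCm38.p6) by symbol, and they lay on 17 chromosomes, with 10 on chromosome 11 and 8 on chromosome 17. Promoter windows, which run from 250 bases before to 50 bases after the start site, were listed in RefSeq for 66 of them (72 windows). The windows below are those of Mrpl42 and Mrps18b, the genes of each subunit with the smallest p for a lower value, of Mrps18a and Mrpl32, which had higher values in Eif5 cKO and hold a pair of motif matches each, and of Mrps11, which shares its start region with Mrpl46. They are written on the strand of the gene, and capitals mark matches on either strand to GCGCA and GCGC with 1 base of any kind between them (NRF1), CCGGAAG (ETS factors, among them GABP) and AAGATGGC (YY1), which are factors known to act on genes of mitochondrial proteins.
Mrpl42 (chr10:95501900-95502199, minus strand): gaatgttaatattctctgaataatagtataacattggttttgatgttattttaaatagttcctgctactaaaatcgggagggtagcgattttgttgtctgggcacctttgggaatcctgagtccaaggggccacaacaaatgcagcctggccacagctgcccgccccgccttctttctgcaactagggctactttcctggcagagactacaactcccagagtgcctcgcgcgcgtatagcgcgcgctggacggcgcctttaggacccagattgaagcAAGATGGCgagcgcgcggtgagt
Mrps18b (chr17:35916391-35916690, minus strand): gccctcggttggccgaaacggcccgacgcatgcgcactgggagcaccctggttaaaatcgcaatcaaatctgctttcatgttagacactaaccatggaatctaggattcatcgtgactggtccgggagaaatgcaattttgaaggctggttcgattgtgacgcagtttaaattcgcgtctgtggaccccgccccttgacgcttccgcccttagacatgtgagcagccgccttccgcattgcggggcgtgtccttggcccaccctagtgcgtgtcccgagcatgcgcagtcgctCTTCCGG
Mrps18a (chr17:46110754-46111053, plus strand): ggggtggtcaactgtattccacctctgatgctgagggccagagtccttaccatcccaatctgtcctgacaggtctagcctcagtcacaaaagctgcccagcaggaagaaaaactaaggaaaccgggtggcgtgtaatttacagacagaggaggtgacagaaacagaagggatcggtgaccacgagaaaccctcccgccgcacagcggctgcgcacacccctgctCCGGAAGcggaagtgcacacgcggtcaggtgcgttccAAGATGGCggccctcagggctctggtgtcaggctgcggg
Mrpl32 (chr13:14612988-14613287, minus strand): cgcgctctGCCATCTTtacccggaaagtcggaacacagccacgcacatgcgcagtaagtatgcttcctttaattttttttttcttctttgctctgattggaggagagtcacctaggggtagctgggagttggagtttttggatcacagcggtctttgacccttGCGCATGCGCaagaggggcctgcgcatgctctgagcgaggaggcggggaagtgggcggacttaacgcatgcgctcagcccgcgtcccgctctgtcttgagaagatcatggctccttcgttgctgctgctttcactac
Mrps11 (chr7:78782881-78783180, plus strand): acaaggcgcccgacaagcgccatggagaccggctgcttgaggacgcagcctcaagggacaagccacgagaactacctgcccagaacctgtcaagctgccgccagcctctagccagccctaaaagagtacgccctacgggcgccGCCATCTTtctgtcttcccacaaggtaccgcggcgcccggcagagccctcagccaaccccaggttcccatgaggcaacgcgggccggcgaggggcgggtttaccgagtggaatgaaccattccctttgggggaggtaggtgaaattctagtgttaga
In Mrpl42 the YY1 match begins at base 28 after the start site, and in Mrps18a at base 12. Mrps18a also holds an ETS match that begins at base -26, and Mrps18b one on the opposite strand that begins at base 44. In Mrpl32 the NRF1 match begins at base -87 and a YY1 match on the opposite strand at base -242, and in Mrps11 a YY1 match on the opposite strand begins at base -107.

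The 3 motifs were common in these promoters. The ETS motif was in 23 of 72 windows (31.9%), against 8.86% of all 32851 windows in RefSeq and 11.6% of the 21263 windows of protein-coding genes. The NRF1 motif was in 13 windows (18.1%), against 4.60% of all windows and 6.38% of coding ones. The YY1 motif was in 12 windows (16.7%), against 2.75% and 3.05%. At least one of the 3 was in 40 windows (55.6%), against 14.7% and 18.9%. TATAAA, the core of the TATA box, was in 5 windows (6.94%), against 13.6% and 12.6%. A match describes these letters only and is not evidence of binding.

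Many of these genes also start near a gene of the opposite strand, which may overlap them. Of the 66 with a strand in RefSeq, 27 (40.9%) had a protein-coding start on the opposite strand within 1000 bases, against 10.3% of 17492 protein-coding genes. One such pair lies within the set itself, with Mrps11 starting at 78783131 and Mrpl46 at 78783089 on chromosome 7. Other partners also serve mitochondria. Mrps12 faces Sars2, the mitochondrial seryl-tRNA synthetase, Mrpl36 and Mrpl47 face the complex I genes Ndufs6 and Ndufb5, and Mrpl43 faces Twnk, the mitochondrial DNA helicase. Among these partners Twnk overlaps the span of Mrpl43. The span of 22 of the 66 genes (33.3%) overlapped another annotated gene, against 39.4% of coding genes. The sources used here do not say whether counting used the strand, so reads of overlapping genes cannot be told apart.

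The libraries held 2296938 and 2782527 reads in Eif5 cKO, against 2934609 and 2225964 in control. Divided by its degrees of freedom, the chi-square of read counts was 9.83 for the Eif5 cKO pair and 7.57 for the control pair, well over sampling noise, and each library was counted as 1 sample. Eif5 itself had values of 173 and 266 in Eif5 cKO, against 365 and 304 in control, so the groups did not overlap (log2 fold change -0.63, SE 0.25, limma adjusted p = 0.319). Values throughout are reads per gene divided by the authors' size factor of the library, and the fold changes come from limma on log2(value + 1). Such values are relative, so a change shared by all genes would not show. In footprints of a bulk tissue, fewer cells of a type, less RNA per cell and fewer ribosomes per mRNA cannot be told apart. All 12 germ cell markers had a negative log2 fold change. Limma called 9 of them lower and 0 higher, against 0.604% and 0.0744% of all genes tested. The number called changed with each library left out and was lowest without control replicate 1. The list held 0.0859% and 0.112% of reads in Eif5 cKO, against 0.284% and 0.233% in control. The Sertoli list held 3.67% and 2.70%, against 2.05% and 2.71%. The medians of the markers were -1.47 for germ cells, 0.48 for Sertoli cells, 0.71 for Leydig cells, -0.21 for peritubular myoid cells, 0.49 for macrophages, 0.13 for endothelial cells and 0.51 for erythroid cells. Outside the germ cell list limma called 0 markers. Inha, of the Sertoli list, passed in DESeq2 (adjusted p = 0.0340), limma-voom (adjusted p = 0.0186), limma on values scaled by library total (adjusted p = 0.0470) and limma without Eif5 cKO replicate 2 (adjusted p = 0.0421). The Leydig markers Cyp11a1 and Star passed in limma without Eif5 cKO replicate 1 (adjusted p = 0.0450) and without Eif5 cKO replicate 2 (adjusted p = 0.0253). Whether these marker differences reflect tissue makeup, and what part they have in the values below, was not tested.

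The mitochondrial ribosomal protein genes as a group were near the same scaled footprint level in Eif5 cKO and control, and none of them passed the test. They took 0.401% and 0.395% of all reads in Eif5 cKO replicates 1 and 2, with exact 95% binomial intervals of 0.393% to 0.409% and 0.388% to 0.402%. In control replicates 1 and 2 they took 0.414% and 0.420%, with intervals of 0.407% to 0.422% and 0.411% to 0.428%. These intervals cover counting error only. Both Eif5 cKO libraries lay below both controls, with means of 0.398% ± 0.00429 in Eif5 cKO and 0.417% ± 0.00378 in control (SD, n = 2 each), a ratio of 0.955. The difference came from the Mrpl genes, at 0.255% and 0.253% in Eif5 cKO, against 0.271% and 0.269% in control. The Mrps genes took 0.146% and 0.142%, against 0.143% and 0.150%, and overlapped. A share of all reads is scaled by library total. On values scaled in that way, the median log2 fold change was -0.086 for the set and -0.039 for all genes tested, so the typical gene was lower too. No test was made on the summed shares. By comparison, the share held by germ cell markers in Eif5 cKO was 0.384 of that in control.

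**Figure D1:**
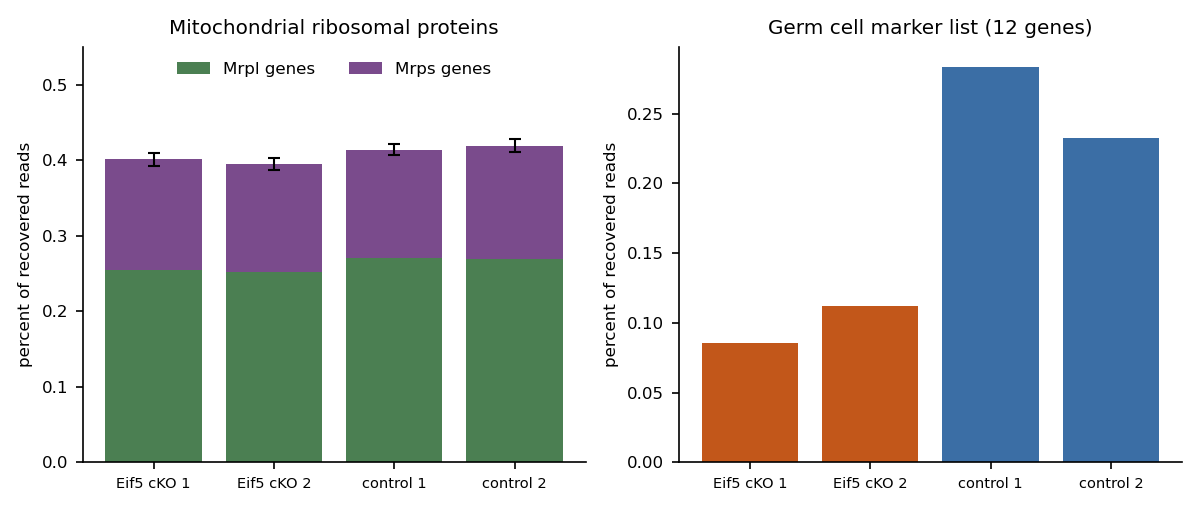
The left panel shows the percentage of recovered reads in Mrpl genes (green) and Mrps genes (purple) in each library, with exact 95% binomial intervals on the sum, and the right panel the same percentage for the germ cell marker list. The mitochondrial ribosomal bars lie between 0.395% and 0.420%, while the germ cell bars are 0.0859% and 0.112% in Eif5 cKO and 0.284% and 0.233% in control.

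Of the 75 genes, 73 passed the filter on low reads and were tested. Mrpl23 had 0 and 5 reads in Eif5 cKO and 1 and 4 in control, and Mrps36 had 7 and 3 reads, against 2 and 1. Mrps36 is known as a component of the 2-oxoglutarate dehydrogenase complex and is not a ribosomal subunit. Both are among the 4 genes of the set for which RefSeq also lists a pseudogene named -ps. The others are Mrpl27 and Mrpl48, which were tested. The sources used here do not say how reads that map to several places were counted.

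With Benjamini-Hochberg adjustment over all 12095 genes, limma called 0 of the 73 genes at an adjusted p under 0.05, against 0.678% of all genes tested (82, with 0.604% lower and 0.0744% higher in Eif5 cKO). The share called is near that background, so the count of 0 is not a result about these genes. The smallest adjusted p was 0.406. An unadjusted p under 0.05 was found for 2 of the 73, against 10.6% of all genes. The edgeR quasi-likelihood test and DESeq2 on the recovered reads also called 0 of 73, with 0 at an unadjusted p under 0.05 in either. The log2 fold change was negative for 39 genes and positive for 34, with a median of -0.04, and the quartiles lay at -0.25 and 0.11. Over all genes tested the median was 0.003 and the quartiles lay at -0.31 and 0.29. Groups did not overlap for 24 of the 73 genes, 15 lower and 9 higher in Eif5 cKO. Over all genes tested this was so for 40.8%, with 20.9% lower and 20.0% higher.

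How small a difference could be seen depended on the reads per gene. The tested genes had a mean of 25.8 to 578 reads per library, with a median of 108, against a median of 81.2 for all genes tested. Standard errors of the log2 fold change ran from 0.23 to 0.57, with a median of 0.31. For 54 of the 73 genes (74.0%) the 95% interval lay within 1 log2 unit of 0, a 2-fold change, against 47.1% of all genes tested. A 2-fold fall was inside the interval for 11 genes and a 2-fold rise for 8. The median absolute log2 fold change between groups was 0.18. The median absolute difference between replicates was 0.30 in Eif5 cKO and 0.25 in control. Over all genes tested these medians were 0.30, 0.37 and 0.32, in the same order.

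**Figure D2:**
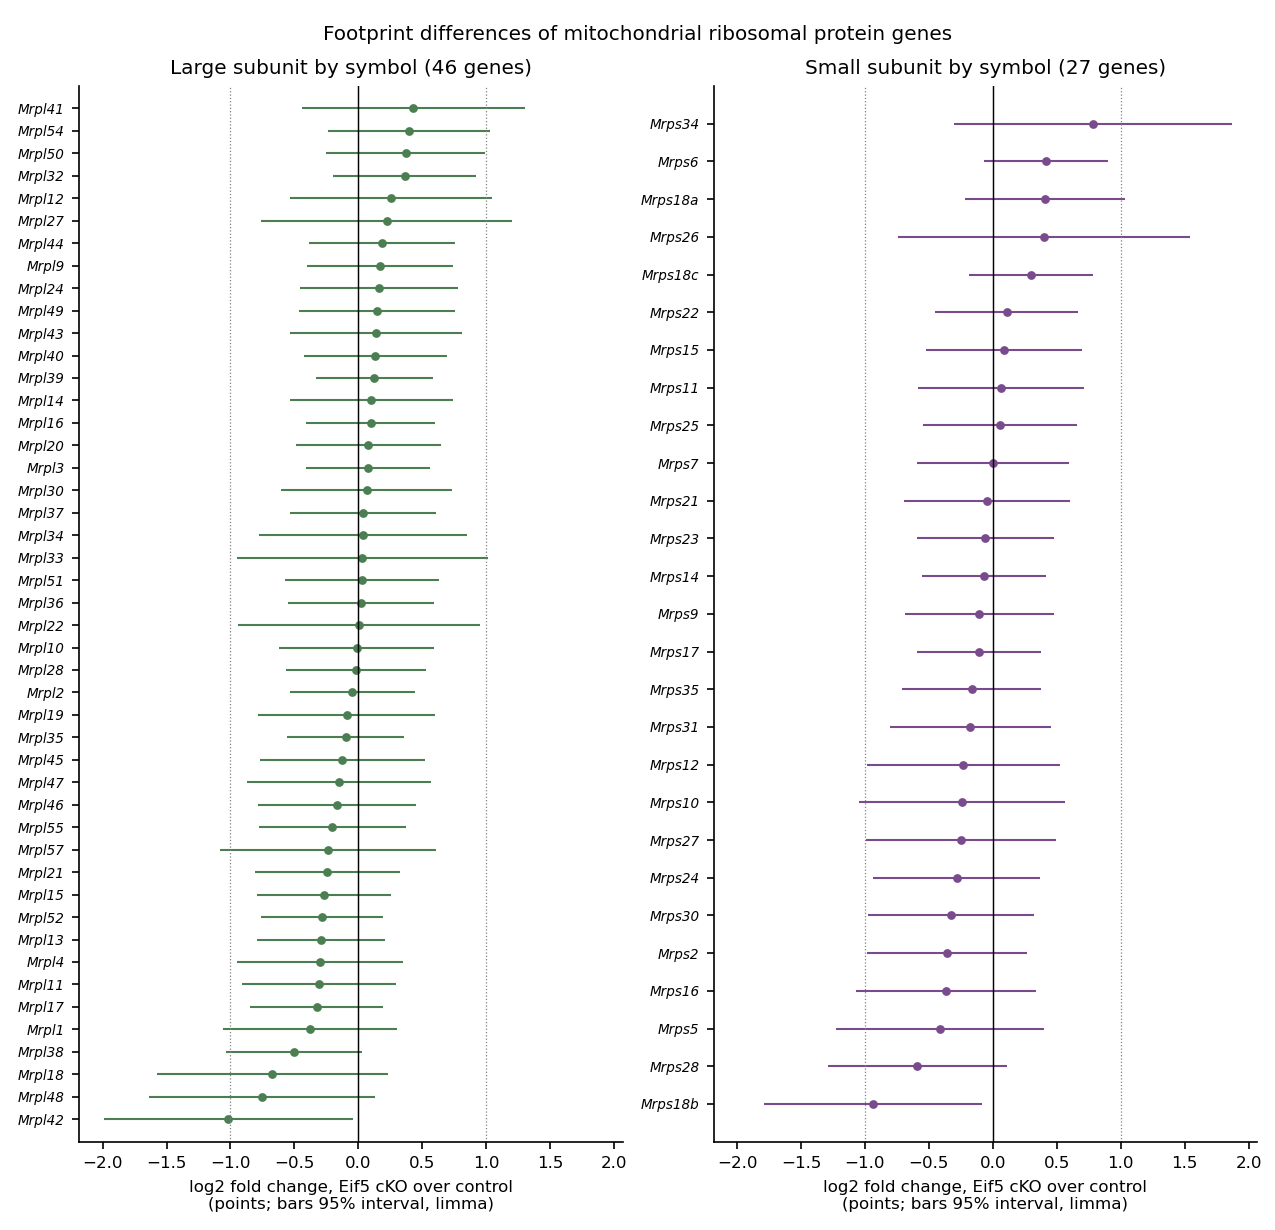
The log2 fold change of Eif5 cKO over control (points) with its 95% interval (bars) for each of the 46 Mrpl and 27 Mrps genes tested, sorted by value. All but Mrpl42 and Mrps18b have intervals that include 0, and dotted lines mark a 2-fold change in either direction.

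Among the 46 tested Mrpl genes 22 were negative and 24 positive, with a median of 0.01 and a mean of -0.06. Among the 27 tested Mrps genes 17 were negative and 10 positive, with a median of -0.10 and a mean of -0.08. The Mrpl median was thus positive while their mean and their summed share of reads were lower in Eif5 cKO. Symbols do not follow the structure in every case. Mrps30 and Mrps18a are known from structures to be large subunit proteins (mL65 and mL66), and moving them left medians of 0.01 over 48 large subunit genes and -0.10 over 25 small subunit genes. Genes with a bacterial counterpart had a median of -0.05 over 45 genes, and those specific to mitochondria had one of 0.03 over 28. No test was made between these classes.

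Among Mrpl genes with lower values, Mrpl42 had the smallest p. It encodes a large subunit protein specific to mitochondria. Its values were 14.8 and 91.5 in Eif5 cKO, against 76.7 and 75.8 in control. Eif5 cKO replicate 1 was far below the other libraries and replicate 2 was above both controls, so the groups overlapped. This gave -1.02 on the log2 scale (SE 0.48, limma adjusted p = 0.442), with a 95% interval that ended just below 0 (-1.99 to -0.04). It was 0.26 without Eif5 cKO replicate 1 and -2.29 without Eif5 cKO replicate 2, where limma gave an adjusted p of 0.000543, so that 1 library sets its direction. The low value rests on 13 reads, against 102 in the other Eif5 cKO library.

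Mrpl38 and Mrpl48 followed, and both encode proteins of the central protuberance, the crown of the large subunit that faces the small one. Mrpl38 had 155 and 135 in Eif5 cKO, against 224 and 189 in control. Both Eif5 cKO libraries were below both controls (log2 fold change -0.51, SE 0.26, limma adjusted p = 0.503). Mrpl48 had 29.5 and 31.4, against 49.0 and 55.1. Here too the groups did not overlap, and replicates lay close together (log2 fold change -0.75, SE 0.44, limma adjusted p = 0.570). Mrpl48 overlaps Rab6a in the annotation and has a pseudogene.

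The other genes of the set listed here at the central protuberance, named after their values were seen, were Mrpl18, Mrpl55, Mrpl46 and Mrpl40. The list may not be complete. It did not cover genes of the set without a listed site. Nor did it cover mitochondrial ribosomal proteins with names other than Mrpl or Mrps, of which 2 were negative and 4 positive, Ict1 (0.26) among the latter. Mrpl18 had 34.1 and 26.9 in Eif5 cKO, against 56.3 and 42.5 in control (log2 fold change -0.67, SE 0.45). Mrpl55 had 124 and 109, against 136 and 131 (log2 fold change -0.20, SE 0.28). In both of these all Eif5 cKO values lay below all control values. Mrpl46 had 140 and 82.5, against 128 and 114, and Mrpl40 had 209 and 133, against 144 and 160, and in both the groups overlapped. The log2 fold change was thus negative for 5 of these 6 genes, with a median of -0.35, and the groups did not overlap for 4, all lower. Over all genes tested, 20.9% were lower in Eif5 cKO without overlap. Mrpl38 and Mrpl48 are among the 4 and were named for their low values. The count is thus a description, and no comparison with that share is drawn. Of these 6 genes 0 passed. Without Eif5 cKO replicate 1, Eif5 cKO replicate 2, control replicate 1 or control replicate 2, Mrpl38 was at -0.60, -0.41, -0.39 or -0.63 and Mrpl48 at -0.71, -0.79, -0.83 or -0.67.

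At the L1 stalk, which guides spent tRNAs out of the ribosome, Mrpl1 had 59.1 and 78.1 in Eif5 cKO, against 78.3 and 99.9 in control. The Eif5 cKO values were below both controls, by very little in replicate 2 (log2 fold change -0.38, SE 0.34, limma adjusted p = 0.736). The other stalk recruits translation factors to the ribosome, and its genes differed in sign. Mrpl12, whose protein is also known in human cells to bind the mitochondrial RNA polymerase, had 59.1 and 55.6 in Eif5 cKO, against 41.6 and 55.1 in control (log2 fold change 0.25, SE 0.39). The groups were separated by less than 1 unit of the value. Mrpl10, which anchors Mrpl12, had 102 and 116, against 94.7 and 127 (-0.01, SE 0.30). Mrpl11, at the stalk base, had 88.6 and 119, against 115 and 141 (-0.31, SE 0.30). In Mrpl10 and Mrpl11 the groups overlapped. At the exit of the tunnel through which the new chain leaves, 3 of 7 tested genes were negative and 4 positive, with a median of 0.004. Among them Mrpl45, whose protein holds the ribosome at the inner membrane, had 89.7 and 79.0, against 99.6 and 84.9 (-0.13, SE 0.32).

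Among Mrpl genes with higher values, Mrpl32, Mrpl54 and Mrpl50 had the smallest p. Mrpl32, whose precursor must be processed by the m-AAA protease before it joins the ribosome, had 143 and 204 in Eif5 cKO, against 135 and 130 in control. The groups did not overlap, but the Eif5 cKO libraries were farther from each other than the lower one was from the controls (log2 fold change 0.36, SE 0.28, limma adjusted p = 0.686). Mrpl54 had 134 and 114, against 69.4 and 126, and the groups overlapped (0.40, SE 0.31, limma adjusted p = 0.702). Mrpl50 had 114 and 106, against 84.1 and 84.9. Both groups were tight and did not overlap (0.37, SE 0.31, limma adjusted p = 0.717). Both Mrpl54 and Mrpl50 encode proteins specific to mitochondria. On libraries scaled to the Sertoli list, where the median of all genes moved to -0.45, the 3 genes were at -0.10, -0.06 and -0.09, which is higher than that median. That scaling moves all genes nearly alike, so their place above the median was fixed in advance.

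**Figure D3:**
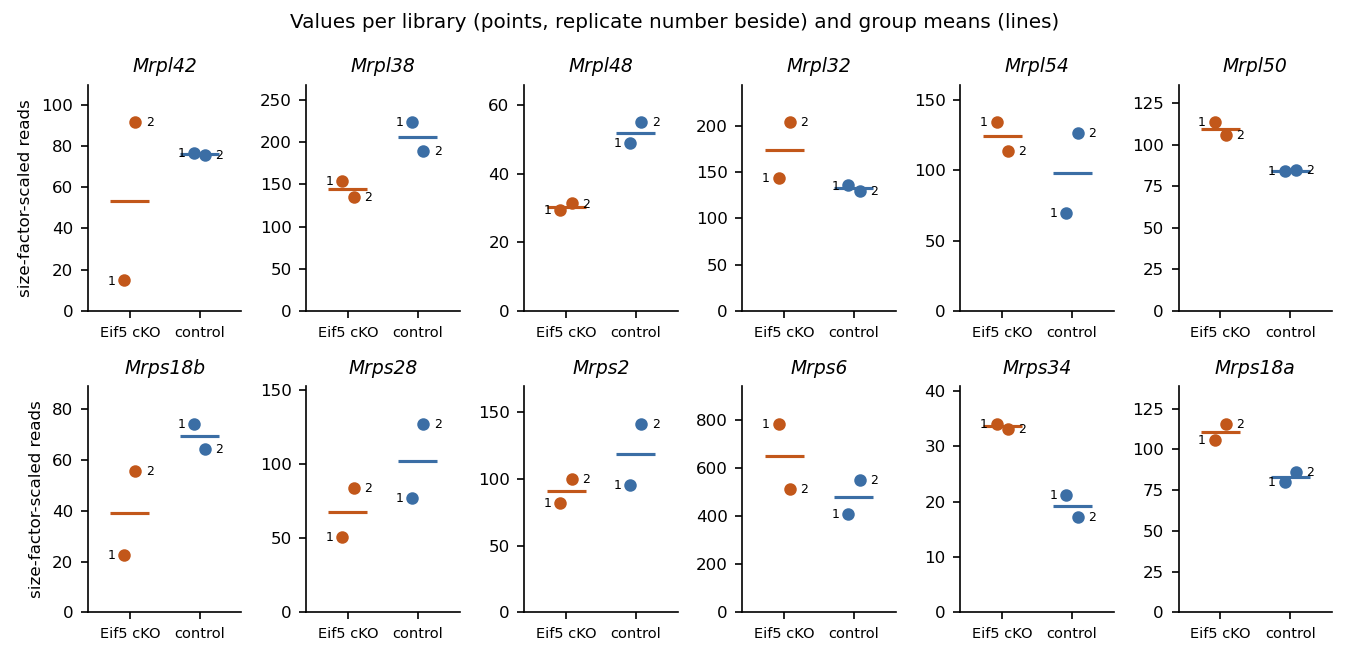
Size-factor-scaled reads in each Eif5 cKO and control library (points, with the replicate number) and group means (lines) for the 3 genes of smallest p in each subunit and direction. Groups are apart in Mrpl38, Mrpl48, Mrpl32, Mrpl50, Mrps18b, Mrps34 and Mrps18a and overlap in the other panels, and in Mrpl42 the 2 Eif5 cKO points are 14.8 and 91.5.

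Among Mrps genes with lower values, Mrps18b had the smallest p of the whole set. It is one of 3 mammalian genes related to the bacterial S18 gene. It had 22.7 and 55.6 in Eif5 cKO, against 74.3 and 64.3 in control. Both Eif5 cKO libraries were below both controls, replicate 1 by much more (log2 fold change -0.94, SE 0.42, 95% interval -1.79 to -0.08, limma adjusted p = 0.406). Its log2 fold change was -0.31 without Eif5 cKO replicate 1 and -1.56 without Eif5 cKO replicate 2, where it passed (limma adjusted p = 0.0341). Mrps28, counterpart of bacterial S1, had 51.1 and 84.3, against 77.5 and 127 (-0.59, SE 0.35, limma adjusted p = 0.573). Mrps2, counterpart of bacterial S2, had 81.8 and 99.6, against 95.5 and 141 (-0.36, SE 0.31, limma adjusted p = 0.730). In both the groups overlapped.

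The other members of the S18 trio had higher values in Eif5 cKO than in control. Mrps18a had 106 and 116, against 80.0 and 86.1 (0.41, SE 0.31, limma adjusted p = 0.681). Mrps18c had 362 and 327, against 242 and 324 (0.30, SE 0.24, limma adjusted p = 0.712). The groups did not overlap in either gene, although Eif5 cKO replicate 2 and control replicate 2 were almost level in Mrps18c. In the ribosome the proteins of Mrps18b and Mrps18c lie in the small subunit (mS40 and bS18m), at different sites, and that of Mrps18a lies in the large one. Of these 3 genes 0 passed, and the differences between them were not tested. The span of Mrps18a overlaps Rsph9 in the annotation, and that of Mrps18b overlaps Gm16279.

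Among Mrps genes with higher values, Mrps6 had the smallest p. It had 783 and 512 in Eif5 cKO, against 408 and 551 in control. Eif5 cKO replicate 1 was the high library and the other Eif5 cKO library was within the control range (log2 fold change 0.42, SE 0.24, limma adjusted p = 0.565). The gene Slc5a3, a myo-inositol transporter, lies within the span of Mrps6, and reads of Slc5a3 may be among these. Mrps34, a small subunit protein whose loss in humans is known to cause a mitochondrial disease, had 34.1 and 33.2, against 21.2 and 17.2. The groups were apart and tight, but the values rest on 15 to 37 reads per library (0.78, SE 0.54, limma adjusted p = 0.645). Mrps12, of the decoding centre, had 51.1 and 54.7, against 66.1 and 58.5 (-0.23, SE 0.37). Mrps30 had 67.0 and 100, against 94.7 and 112 (-0.33, SE 0.32).

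Several of the extreme values came from single libraries. The Eif5 cKO replicates differed by more than 1 log2 unit for 5 of the 73 genes, against 1 for the controls. The 5, of which Mrps21, Mrpl33 and Mrps26 were named after their values were seen, were Mrpl42, Mrps18b, Mrps21, Mrpl33 and Mrps26. Mrps21 had 78.4 and 188 in Eif5 cKO, against 112 and 140 in control. Mrpl33 had 63.6 and 21.5, against 31.0 and 42.5, and Mrps26 had 44.3 and 17.9, against 19.6 and 23.0. In these 3 the controls lay between the Eif5 cKO libraries. The gene that differed between controls was Mrpl22, with 37.5 and 37.7, against 57.9 and 24.1. With Eif5 cKO replicate 2 left out limma called 2 of 73 genes, both lower (Mrpl42 and Mrps18b), against 2.86% of all genes in that fit. With any other library left out it called 0.

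**Figure D4:**
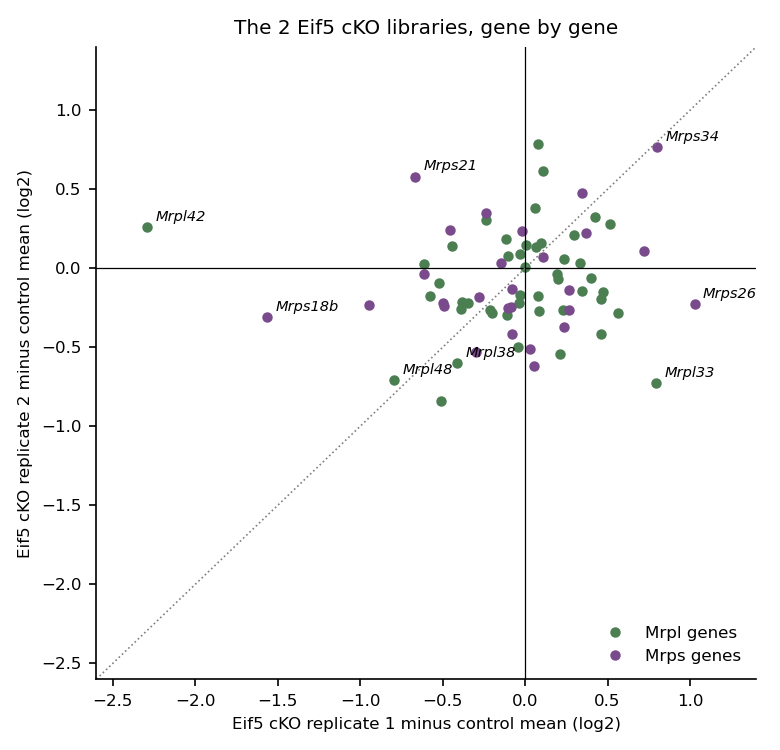
Each point is a gene, placed by its log2(value + 1) in Eif5 cKO replicate 1 (horizontal) and replicate 2 (vertical) minus the mean of the controls, and the dotted line marks equal differences. Mrpl42 and Mrps18b are at -2.29 and -1.56 on the horizontal axis but at 0.26 and -0.31 on the vertical one, and both axes share the same controls.

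The remaining proteins of the mitochondrial ribosome carry other names. Of these 6 genes 0 passed, 2 were negative and 4 positive, with a median of 0.15. Chchd1, of the small subunit, had 257 and 246 in Eif5 cKO, against 139 and 193 in control (0.62, SE 0.26, limma adjusted p = 0.353). Gadd45gip1, of the large subunit, had 65.9 and 58.3, against 44.9 and 44.8 (0.46, SE 0.39, limma adjusted p = 0.724). In both the groups did not overlap. Ict1, now named Mrpl58, encodes a hydrolase that frees stalled chains and is built into the large subunit. It had 110 and 110, against 106 and 79.2 (0.26, SE 0.31).

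Genes that act around the mitochondrial ribosome did not pass either. For each list that follows, 0 genes passed in either direction. Of 26 tested assembly factors 15 were negative, with a median of -0.11. Trub2, a pseudouridine synthase of mitochondrial RNA, had 6.82 and 20.6 in Eif5 cKO, against 42.4 and 28.7 in control (-1.47, SE 0.62), and passed only without Eif5 cKO replicate 2 among the alternatives (limma adjusted p = 0.0432). Mtg1, a GTPase of large subunit assembly, had 37.5 and 48.4, against 69.4 and 80.3 (-0.79, SE 0.38). Of 16 translation factors 8 were negative and 8 positive, with a median of 0.003. Mtrf1, of the release factor family, had 36.4 and 52.9, against 11.4 and 11.5 (1.85, SE 0.57, limma adjusted p = 0.150). Mtif3, an initiation factor, had 14.8 and 52.04, against 53.9 and 44.8 (-0.79, SE 0.49).

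Of 19 mitochondrial aminoacyl-tRNA synthetase genes 10 were negative, with a median of -0.11. Tars2, for threonine, had 166 and 80.7 in Eif5 cKO, against 88.1 and 44.8 in control (0.87, SE 0.36), and Fars2, for phenylalanine, had 81.8 and 96.0, against 138 and 139 (-0.64, SE 0.29). The groups overlapped in Tars2, which passed without Eif5 cKO replicate 2 (limma adjusted p = 0.0189), and not in Fars2. Of 10 genes of mitochondrial DNA maintenance and transcription 6 were negative, with a median of -0.03. Peo1, the table's name for the helicase gene Twnk that faces Mrpl43, had 48.8 and 26.9, against 75.9 and 71.2 (-0.998, SE 0.40), and Mterf2 had 53.4 and 31.4, against 20.4 and 36.7 (0.56, SE 0.49). Mrpl43 itself was at 0.14 (SE 0.33), and its span overlaps Twnk in the annotation. Among 8 nuclear regulators of mitochondrial genes the median was -0.11. Pprc1, a coactivator, had 328 and 230, against 409 and 315 (-0.38, SE 0.25). Esrra had 21.6 and 12.6, against 5.71 and 0 (2.76, SE 1.19, limma adjusted p = 0.379). Its values rest on only 19 and 14 reads in Eif5 cKO, against 7 and 0 in control. For 23 import genes the median was 0.08, with Tomm34 at 386 and 377, against 639 and 539 (-0.62, SE 0.23, limma adjusted p = 0.262), and Timm50 at 61.3 and 96.9, against 151 and 97.6 (-0.65, SE 0.32).

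Of the 13 mRNAs that mitochondrial ribosomes translate, only 7 were among the deposited genes. These 7 had a median of -0.09, with 5 negative and 2 positive. They took 0.943% and 0.783% of reads in Eif5 cKO, against 0.878% and 0.798% in control, and the groups overlapped. All rows with an mt- symbol, ribosomal RNAs included, took 2.76% and 2.94% in Eif5 cKO, against 3.24% and 3.88% in control, without overlap. Most of these reads lay in mt- rows that are neither the 7 mRNAs nor the ribosomal RNAs and are not listed here. The lower sum is thus not one of the mRNAs, whose mean share in Eif5 cKO was 1.03 of that in control. mt-Nd6 had 3163 and 1568, against 1510 and 1900 (0.39, SE 0.26), and mt-Nd1 had 1205 and 1079, against 1817 and 1136 (-0.33, SE 0.24). The mitochondrial ribosomal RNAs, whose reads are not footprints of translation, were also listed. The small subunit RNA mt-Rnr1 had 1540 and 1197, against 1465 and 1063 (0.12, SE 0.24). The large subunit RNA mt-Rnr2 had 2524 and 2609, against 2745 and 3584 (-0.29, SE 0.25), with both Eif5 cKO libraries below both controls.

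For cytosolic ribosomal proteins, the nearest family by role, 52 of 73 genes were tested, 0 passed, 36 were negative and 16 positive, and the median was -0.21. Rps10 had 46.6 and 70.9 in Eif5 cKO, against 112 and 102 in control (-0.88, SE 0.34), and Rpl26 had 10.2 and 47.6, against 40.8 and 68.9 (-1.21, SE 0.53). Rpl26 passed without Eif5 cKO replicate 2 (limma adjusted p = 0.00630). They took 0.503% and 0.460% of reads, against 0.552% and 0.510%. Cytosolic ribosomal protein genes have many processed copies in the mouse genome, so reads may be split or lost. The 2 families were not tested against each other.

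**Figure D5:**
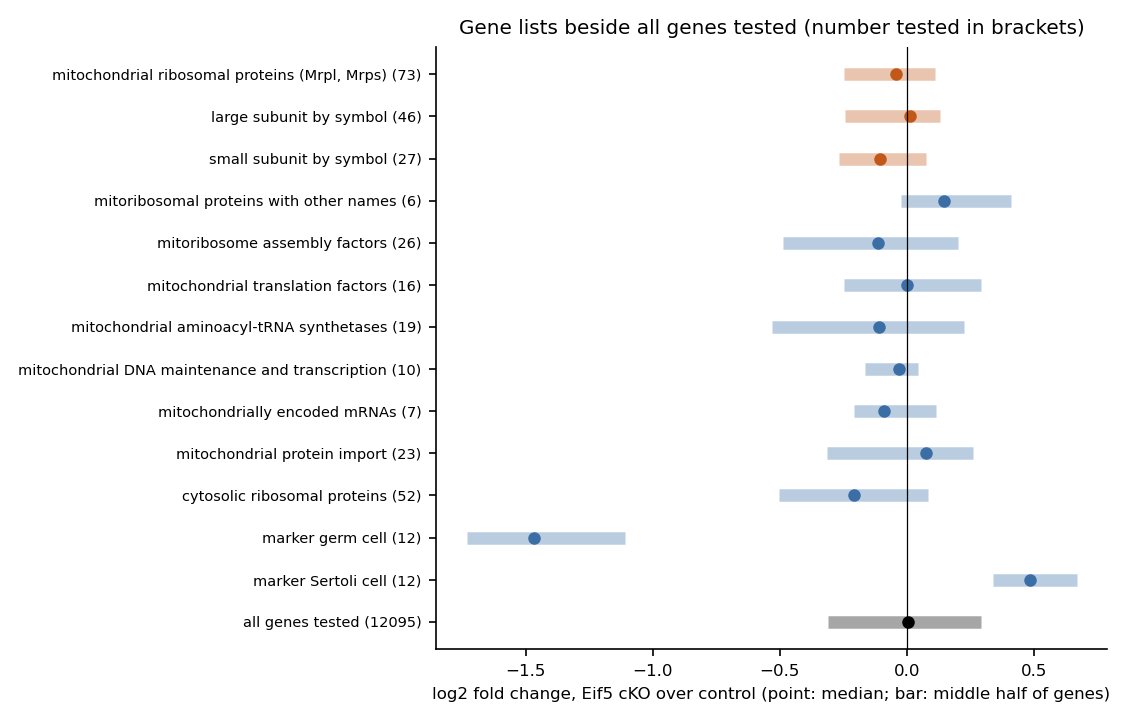
Median (point) and quartiles (bar ends) of the log2 fold change of Eif5 cKO over control for the mitochondrial ribosomal protein genes (orange), other lists (blue) and all 12095 genes tested (black). The mitochondrial ribosomal medians, -0.04 in all, lie near the 0.003 of all genes, while germ cell markers have a median of -1.47 and Sertoli cell markers one of 0.48.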

How the data were processed

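Ribosome footprints of whole testes at day 10 were measured in 2 Eif5 cKO and 2 control samples, grouped by sample title. Bowtie2, STAR, featureCounts and GRCm38 are named in the submitters' processing notes, without versions or roles. The deposited columns are named raw counts, but they hold a signal that is not whole: the authors divided reads by a size factor per library. Whole reads were recovered for 100% of values (relative tolerance 1e-06), 2225964 to 2934609 per library, and the divisors equalled recomputed median-of-ratios size factors. No row lacked a name and 0 columns belonged to other samples. Every gene had at least 10 reads over the 4 libraries.

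Because the values were not counts, limma 3.58.1 (R 4.3.3) with an intensity trend was fitted to log2(value + 1), with a term for group and no other, over 12095 genes passing filterByExpr of edgeR 4.0.16 (minimum count 10) on the recovered reads. The fold changes understate changes of low genes. Tests were two-sided, adjusted by Benjamini-Hochberg over all genes and called under 0.05. A permutation of 2 against 2 samples cannot give p below 0.333, so calls rest on pooled variance (2 residual and 37.0 prior degrees of freedom). Fits were tested on simulated reads. Alternatives were edgeR, DESeq2 1.42.0, limma-voom, other scalings, pseudocounts of 0.5 and 4, other filters, left-out libraries and a replicate block. Same-numbered samples did not deviate together (correlation -0.05 across genes), so the numbers were not taken as pairs.

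The members and lists were chosen with earlier results of these data known. Named genes were the 3 members of smallest p per subunit and direction, members of set positions in the ribosome, Eif5, and the 2 genes of smallest p and every called gene of each other list, of which called germ cell markers are given as a count. A part of the rule on footprint density could not be applied without coding lengths, so levels are not compared between genes. Motif searches used RefSeq promoters, and strand and neighbours came from RefSeq (GRCm38.p6). Of the 14984 symbols 13941 matched RefSeq directly, 682 by a synonym, and 361 did not match.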

Additional observations from a re-analysis of the deposited data

How the results depend on the processing

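The count of called mitochondrial ribosomal protein genes was 0 in every alternative fit except the one without Eif5 cKO replicate 2, so it ran from 0 to 2 over the left-out libraries. An adjusted p under 0.1 also gave 0. Over all genes limma called 127, 346, 10 and 20 without Eif5 cKO replicate 1, Eif5 cKO replicate 2, control replicate 1 and control replicate 2, and 128 on values scaled by library total, against 82. With a replicate block, limma and edgeR called 0 of 73. The median log2 fold change of the set ran from -0.147 to 0.00757 over the left-out libraries, that of the Mrpl genes from -0.12 to 0.0326 and that of the Mrps genes from -0.18 to -0.05. Scaling on the Sertoli list gave -0.50, -0.44 and -0.56 for these 3 medians, with 72 of 73 genes negative, while the median of all genes moved to -0.45. Relative to all genes the set was then at -0.05, as it was before scaling. Dividing a library by 1 number moves all genes nearly alike, so this was fixed in advance. The scaling used summed reads of the list, whose largest gene had a mean of 51395.5 reads per library, against a median of 608. The difference in the share of reads, Eif5 cKO minus control, was -0.0188 percentage points, -0.0239 as a share of protein-coding reads, and -0.0218 to -0.0157 over the left-out libraries. For single named genes, 22 of 952 alternative values had the opposite sign, 21 lost a call and 11 gained one. Among the lost calls, Hormad1 did not pass in edgeR (adjusted p = 0.0884) or DESeq2 (adjusted p = 0.389), and Mael did not pass in DESeq2 (adjusted p = 0.0588). Among the gained calls were those of Inha, Cyp11a1, Star, Mrpl42, Mrps18b, Trub2, Tars2 and Rpl26 given above. The values of opposite sign on the Sertoli scaling were Mrpl32 (-0.10), Mrpl54 (-0.0608), Mrpl50 (-0.0855), Mrps6 (-0.0451), Mrps18a (-0.0475), Mrpl12 (-0.20), Mrps18c (-0.16), Ict1 (-0.19), mt-Nd6 (-0.0674), Pecam1 (-0.19) and Hbb-bs (-0.0705). In limma-voom it was Mrpl10 (0.00689). Over the left-out libraries the values ran from -2.29 to 0.26 for Mrpl42, -0.0306 to 0.82 for Mrpl54, -0.23 to 0.20 for Mrpl10, -1.67 to 0.0820 for Mtif3, -0.11 to 0.90 for mt-Nd6, -0.67 to 0.00536 for mt-Nd1, -0.87 to 0.16 for Cnn1, -0.00276 to 0.54 for Pecam1 and -0.00732 to 0.79 for Hbb-bs. The cause was not tested. With 2 samples a group, a change under 2-fold in a gene of this set would mostly not be called, and larger ones can be missed too. Mrpl42 at -1.02 (limma adjusted p = 0.442) and Mtrf1, outside the set, at 1.85 (limma adjusted p = 0.150) did not pass.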
